A study of Mus musculus with 6 samples.

Results

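The small heat shock proteins of muscle were taken as 7 genes, Hspb1, Hspb2, Hspb3, Hspb6, Hspb7, Hspb8 and Cryab, found by gene name in the tables of the single libraries and joined by gene identifier to the count table, which held 55421 genes. All 7 were among the 18140 genes that passed the filter on low counts. RNA-seq covered 3 libraries of control cells and 3 libraries of miR-322/-503 cells, all collected on day 4 of differentiation. Both groups were stable lines derived from C2C12, mouse myoblasts that form multinucleate myotubes in low serum. Both carried the CUG200 construct, in which expanded CTG repeats follow the GFP gene and are transcribed as CUG repeats, as a model of myotonic dystrophy type 1 (DM1). The control line had received the empty pLL4.0 vector and the other line the same vector with the miR-322/-503 fragment. Each group was 1 drug-selected line, so that an effect of the microRNAs and a difference between lines cannot be told apart, and p-values measure only the spread between libraries.

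Small heat shock proteins share an alpha-crystallin domain, assemble into oligomers and hold unfolding proteins without using ATP, from where Hsp70 and its cochaperones can refold them or hand them to autophagy. Skeletal and cardiac muscle express an unusually broad set of them, and they bind to desmin, titin, filamin C and actin, the filament proteins that contraction strains. DM1 is caused by a repeat expansion in the gene of the kinase DMPK, and HSPB2 was first described as a protein that binds DMPK. HSPB2 and HSPB3 form a complex in muscle, and HSPB8 works with BAG3 in the selective autophagy of damaged filament proteins.

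The mature microRNAs that were overexpressed share 6 of their 7 seed bases and are shown since a match to the seed is the usual mark of a direct target. Sequences are from RefSeq, build GRCm38.p6, with the seed (bases 2 to 8) in capitals. Both lie on the minus strand of chromosome X, miR-322-5p at chrX:53054306-53054327 and miR-503-5p at chrX:53054027-53054049.
mmu-miR-322-5p: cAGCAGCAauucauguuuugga
mmu-miR-503-5p: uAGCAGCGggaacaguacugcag
The longest annotated 3'UTR of each of the 7 genes held neither the 7-base match to miR-322-5p (TGCTGCT) nor that to miR-503-5p (CGCTGCT). Among 13534 tested genes with a 3'UTR, 24.2% held the first and 4.82% the second, and the median 3'UTR length was 1161 bases. The 3'UTRs of the 7 genes measured between 132 bases (Hspb3) and 1253 bases (Hspb7), and 6 of them were shorter than the median. The shared 6-base core GCTGCT occurred once, at base 565 of the 3'UTR of Hspb7, against 44.8% of tested 3'UTRs with at least 1 such core. It stood in this context, with the core in capitals.
Hspb7: tcctatctccaGCTGCTggtgcatgagg
These letters give no information on coding sequence matches, which were not searched.

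Of the 7 genes, 5 had a promoter in the RefSeq table (GRCm38.p6). Heat shock factors bind alternating GAA units, and an inverted pair of them, GAANNTTC, is called an element below. This pair is shorter than the form with 3 units. It was found in the 300-base promoters (250 bases before and 50 after the start) of Hspb1, Hspb3, Hspb6 and Hspb8, and in 7.86% of all 32851 promoters. Hspb1 held 2 such elements and each of the other three held 1. The letters upstream of the start are given for the 3 genes with an element there, of which Hspb1 rose and Hspb6 fell below. Capitals mark the element, and positions count back from the first transcribed base.
Hspb1, chr5:135887669-135887918, plus strand, elements beginning at -117 and -97: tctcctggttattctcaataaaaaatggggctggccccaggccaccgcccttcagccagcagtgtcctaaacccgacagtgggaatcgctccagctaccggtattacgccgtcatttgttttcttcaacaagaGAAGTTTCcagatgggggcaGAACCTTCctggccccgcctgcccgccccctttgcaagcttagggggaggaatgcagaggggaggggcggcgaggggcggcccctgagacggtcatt
Hspb6, chr7:30553051-30553300, plus strand, element beginning at -120: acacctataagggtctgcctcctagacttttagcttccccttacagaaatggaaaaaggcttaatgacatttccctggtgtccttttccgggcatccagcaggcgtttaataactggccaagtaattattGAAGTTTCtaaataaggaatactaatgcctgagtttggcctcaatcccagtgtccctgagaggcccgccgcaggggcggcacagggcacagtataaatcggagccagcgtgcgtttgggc
Hspb3, chr13:113663677-113663926, minus strand, element beginning at -224: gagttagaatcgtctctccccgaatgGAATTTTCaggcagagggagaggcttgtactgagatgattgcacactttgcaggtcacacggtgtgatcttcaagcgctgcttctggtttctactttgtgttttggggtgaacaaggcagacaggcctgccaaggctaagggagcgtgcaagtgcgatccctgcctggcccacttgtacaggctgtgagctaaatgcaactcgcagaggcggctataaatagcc
The elements of Hspb1 (at -117) and Hspb6 shared the same 8 letters, GAAGTTTC. That of Hspb8 had these letters too and lay just after the start. Hspb6 had another promoter in the table without an element, and the promoter of Hspb7 held none. The opposite pair TTCNNGAA, the form with 3 alternating units, the E-box CAGCTG and the CArG box were found in none of the 5 genes' promoters, against 8.52%, 0.603%, 16.3% and 1.63% of all promoters. A MEF2 site was found in that of Hspb3 (3.19% of all), where it overlapped a TATAAA, and another TATAAA in that of Hspb6 (13.6% of all). All motifs were searched on both strands. A match describes letters and not a bound site.

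Total estimated counts lay between 73532084 and 92157388 per library. Among genes with 1 to 20 counts, 4 was the most frequent value in every library (865 to 1025 genes), with further peaks at 8 and 12, so 4 counts were taken as 1 read pair, a reading of the values and not a stated setting. The libraries had the markers of differentiating myoblasts: 10 of 12 myogenic markers were at 1 TPM or more in each library, led by Acta1. Of the myogenic markers, 7 were higher and 1 (Myog) was lower in the miR-322/-503 group, and their summed TPM was 3300 to 3711 in control libraries and 3837 to 4025 in the miR-322/-503 libraries. Adipocyte markers summed to at most 0.079 TPM, with Adipoq, Fabp4, Cidec, Lep and Cfd at 0. Endothelial markers summed to 0.573 to 0.835 TPM in the control group and to 1.61 to 2.47 TPM with miR-322/-503, where Tek was higher (log2 fold change 1.9, adjusted p = 0.000342 in edgeR) and the other 4 stayed under 1 TPM in mean. Macrophage markers summed to 4.8 to 7.19 and 5.71 to 6.49 TPM, with Adgre1 at 0. Among them Lyz2 was lower (adjusted p = 0.00289 in edgeR), at 2.65, 1.34 and 1.49 TPM in control replicates and at 0, 0 and 0.0722 TPM in the others. Osteoblast markers summed to 28.1 to 30.1 and 25.5 to 29.5 TPM, with Ibsp at 0 and Alpl lower (log2 fold change -2.76, adjusted p = 0.0135 in edgeR). The sum of the neural markers was 66 to 68.6 TPM in control libraries and 112 to 137 TPM in the miR-322/-503 group, carried by Tubb3 (log2 fold change 1.14), with Rbfox3 at 0 and Gfap lower (-2.54, adjusted p = 0.00155 in edgeR). The part of differentiation state or other cells in the differences below was not tested. The short precursor genes Mir322 and Mir503 were at or under 3.51 TPM in every library, and such precursors are not a measure of the mature microRNAs.

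In miR-322/-503 cells 3 of the 7 genes were higher (Hspb1, Cryab and Hspb8) and 1 was lower (Hspb6) at an adjusted p under 0.05 (edgeR quasi-likelihood test, Benjamini-Hochberg over 18140 genes). Over all tested genes, 13.2% were higher and 15.5% were lower by the same rule. With the additional limit of a log2 fold change above 1 or below -1, which the study used, 1 gene (Hspb1) was higher and none was lower, beside 4.59% and 5.29% of all tested genes. The groups did not overlap in normalized counts for 6 of the 7 genes, against 45.1% of tested genes. In such bulk RNA, more cells that express a gene and more RNA of it per cell cannot be told apart. The median log2 fold change of the 7 was 0.36, and that of all tested genes was -0.01. Levels below are TPM (StringTie's measure of transcript abundance, scaled for gene length and library size) and fold changes come from the counts.

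**Figure D1:**
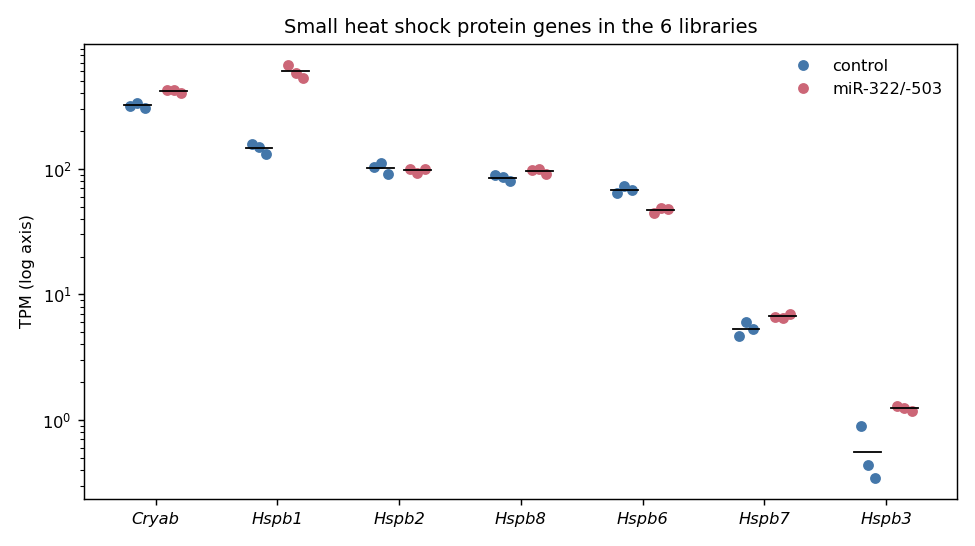
TPM on a log axis of the 7 genes, with 1 point per library (blue, control; red, miR-322/-503) and a black line at the mean of each group of 3. Hspb1 rose from 132 to 157 TPM in the control to 534 to 676 TPM, Hspb6 fell, and only for Hspb2 do the points of both groups overlap.

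Hspb1 encodes HSP25, the mouse form of human HSP27, a stress-inducible chaperone of actin filaments that the p38 pathway phosphorylates through MAPKAPK2. It lies at chr5:135887919-135889563 on the plus strand (3 exons). Its level was 157, 150 and 132 TPM in control replicates 1 to 3 and 676, 583 and 534 TPM in miR-322/-503 replicates 1 to 3. The lowest miR-322/-503 library was thus several times above the highest control library, and the spread within either group was small beside the gap. The log2 fold change was 2.04 ± 0.09 (SE), a 4.13-fold rise with an adjusted p of 7.37e-06 in edgeR. Hspb1 stood at rank 457 of 18140 tested genes by fold change. It stayed past both limits under all 16 alternatives tried, between 1.97 and 2.09 on the log2 scale.

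Of the 75-base stretches of Hspb1 transcripts, 46.4% also occur in Hsp25-ps1 or Gm9817, overlapping genes on opposite strands of chromosome 13, so that its reads could be split among them. Hsp25-ps1 was at 11, 9.21 and 10.1 TPM in control libraries and 42.8, 32.6 and 36.9 TPM in the miR-322/-503 libraries, a log2 fold change of 1.91 ± 0.14 (SE; adjusted p = 6.13e-05 in edgeR). Gm9817 was at 0.78, 0 and 0 TPM in control libraries and at 2.72, 0.475 and 0.455 TPM. Between 94.06% and 96.03% of the summed counts of the 3 genes were assigned to Hspb1 in each library, and with all of them summed the log2 fold change was again 2.04. From which of these loci the shared reads came cannot be told apart here.

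Cryab encodes alphaB-crystallin, the chaperone of desmin whose mutations cause a myopathy with desmin aggregates. It lies at chr9:50751325-50756636 on the plus strand. Its level was 317, 336 and 307 TPM in control libraries and 426, 426 and 401 TPM in the miR-322/-503 libraries, which all lay above the control. This was a 1.3-fold rise, with a log2 fold change of 0.38 ± 0.06 (SE; adjusted p = 0.00254 in edgeR). It was past the threshold under all 15 alternatives, between 0.35 and 0.42. Hspb2, the partner of DMPK, starts next to Cryab and runs the other way, at chr9:50751078-50752354 on the minus strand. Its level was 104, 111 and 91.5 TPM in control libraries and 98.9, 93.2 and 100 TPM in the miR-322/-503 libraries, so that the groups overlapped. The log2 fold change of Hspb2 was -0.01 ± 0.10 (SE; adjusted p = 0.951 in edgeR), and its sign changed between alternatives, from -0.08 to 0.05.

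The TPM of Hspb2 was 0.327, 0.33 and 0.298 of that of Cryab in control libraries and 0.232, 0.219 and 0.25 of it in the miR-322/-503 libraries. The ratio was therefore lower in every miR-322/-503 library than in any control library. The annotated exons of the pair share 252 bases on opposite strands, which is 30.2% of the exonic bases of Hspb2 and 17% of those of Cryab. Whether counting used the strand is not given in the sources used here, and without it reads from the shared bases cannot be assigned to either gene.

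Hspb8 encodes HSP22, the partner of BAG3 in chaperone-assisted autophagy. It lies at chr5:116408491-116422864 on the minus strand. Its level was 90.0, 85.5 and 80.3 TPM in control libraries and 98.8, 100 and 90.3 TPM in the miR-322/-503 libraries. The lowest miR-322/-503 library lay just above the highest control library. The rise was 1.14-fold, or 0.19 ± 0.06 (SE) on the log2 scale, with an adjusted p of 0.0376 in edgeR. This call held under 7 of 15 alternatives and was lost when any library except control replicate 1 was left out (adjusted p = 0.0785 to 0.111), with limma on log2 TPM (0.133 with a pseudocount of 1) and with no filter on low counts (0.0577).

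Hspb6 encodes HSP20, a small heat shock protein that the cyclic AMP dependent kinase PKA phosphorylates. It lies at chr7:30552178-30555443 on the plus strand and was the single member called lower. Its level was 64.4, 72.6 and 68.2 TPM in control libraries and 44.5, 48.4 and 48.2 TPM in the miR-322/-503 libraries, without overlap. It changed by -0.52 ± 0.08 (SE) on the log2 scale, to 0.696 of the control level (adjusted p = 0.00308 in edgeR), and it was past the threshold under all 15 alternatives (-0.57 to -0.46). Its exons share 122 bases with Proser3 on the other strand, 5.31% of their length. A further 77 bases are shared on the same strand with Gm38670, which had 1 estimated count in every library. Proser3 itself was at 8.62 ± 1.23 TPM in control libraries and 8.31 ± 1.04 TPM in the miR-322/-503 group (SD, n = 3).

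Hspb7 encodes a chaperone of heart and skeletal muscle that binds filamin C. It lies at chr4:141420779-141425311 on the plus strand. Its level was 4.66, 5.98 and 5.28 TPM in control libraries and 6.60, 6.53 and 7.03 TPM in the miR-322/-503 libraries. The groups did not overlap, but the log2 fold change of 0.36 ± 0.13 (SE) did not pass the adjusted threshold (adjusted p = 0.0775 in edgeR), nor under any of the 15 alternatives (0.0544 to 0.216).

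Hspb3, the partner of HSPB2, is a gene of 1 exon at chr13:113662896-113663676 on the minus strand and was the lowest of the 7. Its level was 0.889, 0.434 and 0.343 TPM in control libraries and 1.29, 1.24 and 1.17 TPM in the miR-322/-503 libraries. These values rested on 28, 15 and 12 estimated counts in control libraries and on 50, 39 and 39 in the other group, or 3 to 12.5 read pairs per library at 4 counts a pair. The log2 fold change was 1.19 ± 0.45 (SE; adjusted p = 0.0881 in edgeR). Control replicate 1 stood above the other control libraries, and without it the log2 fold change was 1.68 (adjusted p = 0.0375). The call was also made with a minimum of 10 counts in every library (0.046) and with limma on log2 TPM. With limma the log2 fold change was 0.54 with a pseudocount of 1 (0.0299) and 1.11 with 0.1 (0.0468). The call was made under 4 of the 15 alternatives, and leaving out any of the other 5 libraries gave adjusted p-values of 0.17 to 0.215, with a log2 fold change as low as 0.94.

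The summed TPM of the 7 genes was 738, 761 and 685 in the control libraries. It was 1351, 1259 and 1181 in the miR-322/-503 libraries, a ratio of the group means of 1.74. Of this gain, 84.2% came from Hspb1. The other 6 genes together went from 582 ± 29.2 to 666 ± 16 TPM (SD, n = 3), a ratio of 1.15. The shares of all genes except Hspb3 did not overlap between the groups. Hspb1 made up 20.1% ± 0.99 of the sum in control libraries and 47.2% ± 2.51 in the miR-322/-503 group, and Cryab 44% ± 0.889 and 33.1% ± 1.38 (SD, n = 3). The share went from 14% ± 0.6 to 7.74% ± 0.654 for Hspb2, from 11.7% ± 0.484 to 7.63% ± 0.316 for Hspb8 and from 9.41% ± 0.624 to 3.74% ± 0.402 for Hspb6. A share depends on the other genes too: the TPM of Cryab and Hspb8 was higher in the miR-322/-503 group while their shares were lower. Only Hspb6 was also called lower in its own level. The mean of Hspb2 was 102 TPM in control libraries and 97.4 TPM in the miR-322/-503 group, with overlapping libraries.

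**Figure D2:**
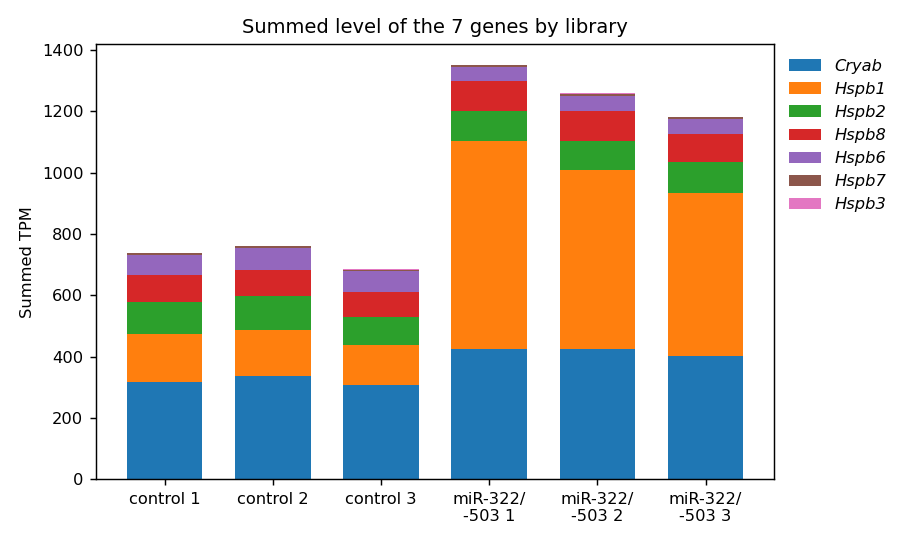
Summed TPM of the 7 genes by library, with each bar divided by gene and starting at 0. The control bars reach 685 to 761 TPM with Cryab as the largest piece, and the miR-322/-503 bars reach 1181 to 1351 TPM with Hspb1 as the largest piece.

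In the control the order of levels was Cryab, Hspb1, Hspb2, Hspb8, Hspb6, Hspb7 and Hspb3, and no pair of neighbours in this order overlapped over the 3 libraries. In the miR-322/-503 group Hspb1 stood first and Cryab second. The rest kept their places there, but Hspb2 (93.2 to 100 TPM) and Hspb8 (90.3 to 100 TPM) overlapped. The TPM ratio of Hspb1 to Cryab was 0.493, 0.448 and 0.431 in control libraries and 1.59, 1.37 and 1.33 in the miR-322/-503 libraries. Among all genes by mean TPM, Hspb1 moved from rank 973 to rank 186, Cryab from rank 418 to rank 292 and Hspb6 from rank 2295 to rank 3220.

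The 7 genes lie on 5 chromosomes, and each was set beside the other tested genes of its chromosome. The median log2 fold change was 0.17 on chromosome 5 (1181 genes), 0.15 on chromosome 13, 0.01 on chromosome 7, -0.19 on chromosome 4 and -0.27 on chromosome 9 (1013 genes). Hspb1 lay 1.88 above its chromosome's median, and 97.2% of the other genes there were below it. Hspb8, on the same chromosome, lay 0.03 above the median, with 52.8% of the others below it. Cryab lay 0.65 and Hspb2 0.26 above the median of chromosome 9, so that Hspb2, with a difference near 0, exceeded 75.8% of the other genes there. The distance was 1.04 for Hspb3, 0.55 for Hspb7 and -0.54 for Hspb6. Within 1 Mb the median was 0.12 at Hspb1 (34 genes) and -0.17 at Cryab and Hspb2 (25 genes), and it lay between -0.18 and -0.06 at the other four. A part of chromosome-wide differences in the values of the members was not tested.

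**Figure D3:**
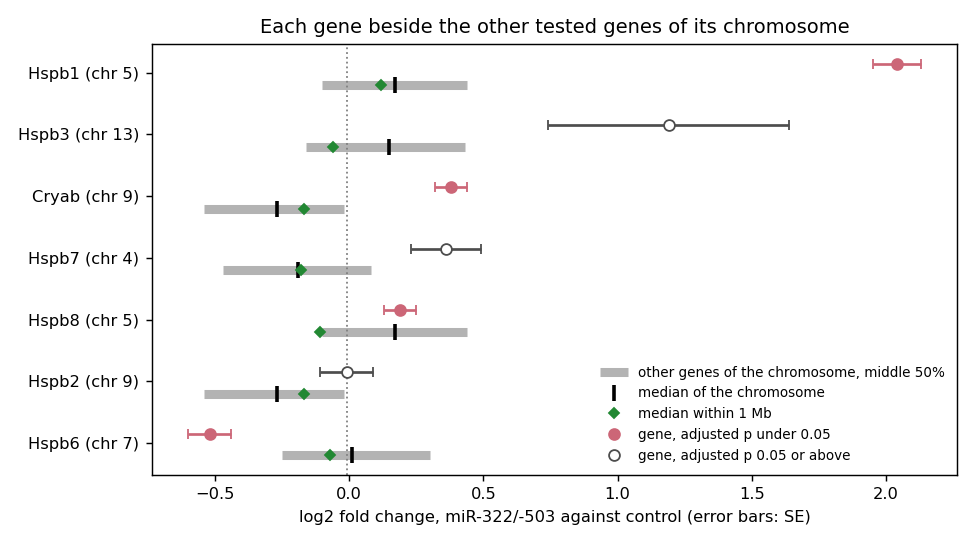
Log2 fold change of each gene (circle with SE, filled where the adjusted p was under 0.05) above the middle 50% (grey bar), the median (black tick) of the other tested genes of its chromosome and the median of those within 1 Mb (green diamond), with a dotted line at the median of all tested genes (-0.01). Hspb8 (0.19) sits close to the median of chromosome 5 (0.17), and Cryab (0.38) stands to the right of the grey bar of chromosome 9 (-0.54 to -0.02).

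The genes that work with these chaperones were described from 8 lists with 95 genes, of which 91 were tested. Of these, 21 were higher and 13 were lower, 23.1% and 14.3% of those tested, beside 13.2% and 15.5% of all tested genes. Their median log2 fold change was 0.06, against -0.01 over all tested genes. All lists were chosen with earlier results of these data known. Calls went both ways in 5 of the 8 lists, namely the Hsp70, BAG, J-domain, Hsp90 and client lists. Values below are CPM (counts scaled to the normalized library size, not to gene length), given as mean ± SD with n = 3 per group, and adjusted p-values are from edgeR.

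The other small heat shock proteins (Cryaa, Hspb9, Hspb11 and Odf1) gave no call among the 2 that were tested. None of the 4 heat shock factors passed the test. Hsf1, the main inducer of heat shock genes, was at 30.9 ± 2.32 CPM in control libraries and 33.4 ± 2.24 CPM in the miR-322/-503 group, with overlapping libraries (log2 fold change 0.11 ± 0.09, adjusted p = 0.402).

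Of 14 Hsp70 and Hsp110 chaperones, 4 were higher and 2 were lower, with a median of 0.06. Hspa1l rose from 3.23 ± 0.359 to 9.12 ± 0.608 CPM (log2 fold change 1.5, adjusted p = 0.000149), Hspa2 by 0.46 and Hspa4l, a nucleotide exchange factor of the Hsp110 type, by 0.43. The call of Hspa4l was lost with limma on log2 TPM (0.056 with a pseudocount of 1 and 0.0529 with 0.1). Hspa5, the Hsp70 of the endoplasmic reticulum, fell from 1368 ± 106 to 913 ± 10.9 CPM (log2 fold change -0.58, adjusted p = 0.000516). Hspa12b, an endothelial Hsp70 relative, had a log2 fold change of -0.50 that passed (0.0324) but was lost whenever a library was left out. Hspa8, the constitutive Hsp70, was at 1470, 1479 and 1518 CPM in the control and at 1404, 1483 and 1772 CPM in the miR-322/-503 libraries. Its log2 fold change was 0.06 ± 0.09 (adjusted p = 0.657), and the sign turned without miR-322/-503 replicate 3 (-0.04). The stress-inducible Hspa1a and Hspa1b are near-identical copies whose reads may be split. Neither passed the test (log2 fold changes of -0.07 and -0.16).

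Among 14 BAG cochaperones and autophagy partners, 1 was higher and 2 were lower (median -0.01). Bag3, the partner of HSPB8, was at 112, 125 and 116 CPM in control libraries and at 98.7, 111 and 103 CPM in the miR-322/-503 libraries. All of the latter lay below the control, but the log2 fold change of -0.17 ± 0.07 (SE) did not pass (adjusted p = 0.099). Hspb8, whose call held under 7 of 15 alternatives, and Bag3 thus had estimates of opposite sign. Map1lc3a, a coat protein of autophagosomes, rose from 69.8 ± 4.22 to 152 ± 9.19 CPM (log2 fold change 1.13, adjusted p = 3.14e-05). Bag2 fell by 0.43 on the log2 scale (adjusted p = 0.00251). Wipi1 passed narrowly (log2 fold change -0.19, adjusted p = 0.0457) and lost its call under 12 of the 15 alternatives.

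The J-domain cochaperones, which deliver clients to Hsp70, had 4 higher and 4 lower of 14 (median -0.09). Dnajb1, the heat-inducible partner of Hsp70, fell from 161 ± 9.71 to 76.3 ± 5.61 CPM (log2 fold change -1.08, adjusted p = 5.59e-05), the opposite direction to Hspb1. Dnaja2 fell by 0.76 and Dnajc3, of the endoplasmic reticulum, by 0.57. Dnajb5 rose by 0.54, Dnajb6, whose mutations cause a limb-girdle muscular dystrophy, by 0.32 and Dnaja1 by 0.29. The call of Dnaja1 was lost without control replicate 2 (0.0513), miR-322/-503 replicate 2 (0.0522) or miR-322/-503 replicate 3 (0.0561).

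Of 14 genes on the list of Hsp90 and myosin chaperones with their partners, 2 were higher and 3 were lower (median -0.05). Smyd1, a lysine methyltransferase of muscle, rose from 22.1 ± 1.95 to 58.9 ± 1.4 CPM (log2 fold change 1.41, adjusted p = 2.24e-05). The myosin chaperone Unc45b had a log2 fold change of -0.4 and did not pass (adjusted p = 0.0818 in edgeR). Hsp90aa1, the inducible cytosolic Hsp90, rose by 0.31. Fkbp5 fell by 0.55, Hsp90b1, of the endoplasmic reticulum, by 0.34 and the kinase cochaperone Cdc37 by 0.29. Cdc37 lost its call with limma on log2 TPM (0.0761 with a pseudocount of 1 and 0.074 with 0.1). Hsp90b1 missed the threshold without control replicate 1 (0.0634), miR-322/-503 replicate 1 (0.0539) or miR-322/-503 replicate 2 (0.0531). Of the 10 chaperonins 1 was higher, Cct6a, by 0.23 (adjusted p = 0.0195), which was lost when any library except control replicate 1 or miR-322/-503 replicate 2 was left out (0.0523 to 0.0602). The remaining 9 did not pass.

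The clients, partners and kinases of the small heat shock proteins had 9 higher and 2 lower of 19 tested (median 0.24), or 47.4% and 10.5%, where 13.2% and 15.5% of all tested genes were called. Since this list was chosen with earlier results of these data known, its shares are a description and were not tested. Dmpk, the kinase that HSPB2 binds and the gene expanded in DM1, was at 165, 136 and 133 CPM in control libraries and at 276, 206 and 178 CPM in the miR-322/-503 libraries. Its log2 fold change was 0.61 ± 0.17 (SE, adjusted p = 0.0304), while that of Hspb2 was -0.01. The call of Dmpk was lost without control replicate 2 (0.0991), control replicate 3 (0.0915) or miR-322/-503 replicate 2 (0.0587). Tgm2, a transglutaminase that crosslinks small heat shock proteins, rose from 201 ± 11.7 to 591 ± 50 CPM (log2 fold change 1.56), Neb, the thin filament ruler, by 1.17 and Actn2, of the Z-disc, by 0.86. With limma on log2(TPM + 1) in place of the counts the log2 fold change of Neb was 0.27 and did not pass (0.0529), and that of Actn2 was 0.49. This was the lowest value of Actn2, which passed under all 15 alternatives and reached 1.02. Prkaca, a catalytic subunit of PKA, a kinase of HSPB6, fell by 0.73 on the log2 scale (adjusted p = 0.000806 in edgeR). Prkg1, another kinase on this list, rose by 0.65 (adjusted p = 0.00742 in edgeR). Hspb6 RNA fell by 0.52, and whether it depends on either kinase was not tested. Mapk12, a p38 kinase of muscle, fell by 0.85. None of the other tested p38 and MAPKAPK genes passed. Their log2 fold changes were 0.06 (Mapk11), 0.04 (Mapk14), 0.13 (Mapkapk2), -0.66 (Mapkapk3) and 0.59 (Mapkapk5).

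**Figure D4:**
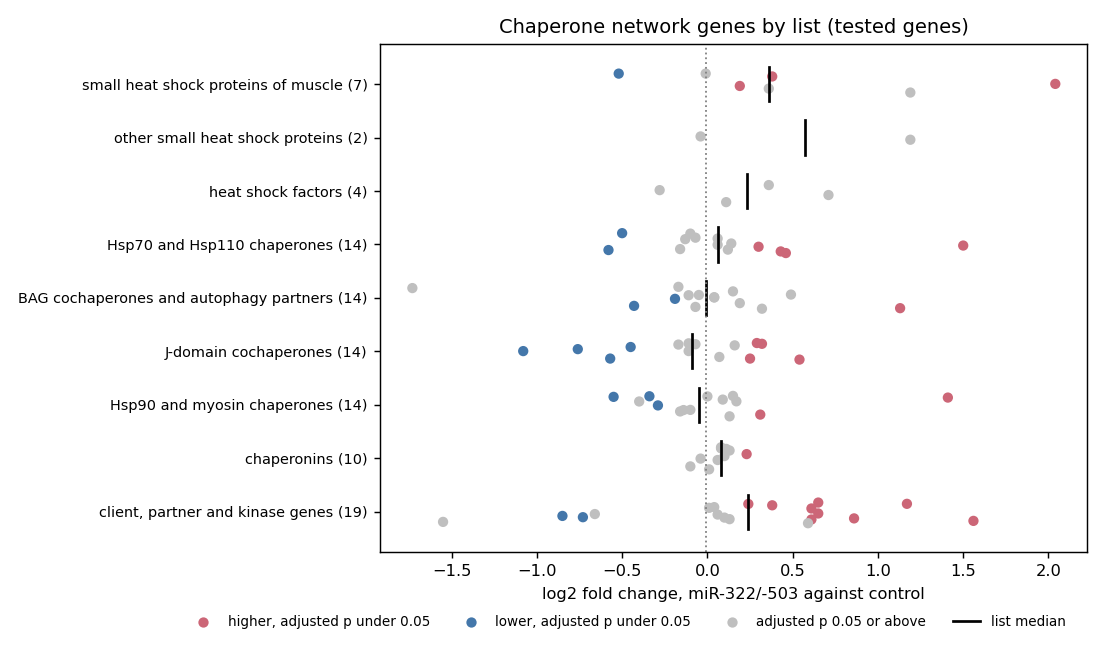
Log2 fold change of each tested gene by list, with red for higher and blue for lower at an adjusted p under 0.05, grey otherwise, a black bar at each list's median and a dotted line at the median of all tested genes (-0.01). Points are shifted at random in height for legibility. Hspb1 (2.04) is the point farthest to the right, and the J-domain list has 4 genes on either side that passed.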

How the data were processed

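RNA-seq of 3 control and 3 miR-322/-503 libraries was used. Per the labels and methods, the authors ran Trim-Galore, Hisat2 (GRCm38) and Stringtie to make the tables, with versions and annotation not given in the sources used here. The deposited table holds estimated counts per gene as whole numbers. The deposited table of each library holds FPKM, TPM and per-base coverage, and the TPM of genes listed more than once were summed.

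Counts were tested with edgeR 4.0.16 in R 4.3.3 (filterByExpr, TMM, glmQLFit, glmQLFTest), and p-values of 18140 genes were adjusted by Benjamini-Hochberg. Standard errors of log2 fold changes were derived from the quasi-likelihood F as the absolute change over the root of F. Peaks of the low counts at multiples of 4 were read as 4 counts per read pair. No 2 replicates agreed within sampling noise (chi-square per degree of freedom 14.6 to 21.2). The 7 genes and all lists were chosen with earlier results of these data known. Named list genes are up to 3 per list and direction with adjusted p under 0.05, groups without overlap and at least 1 CPM in the higher group, by largest fold change, and Dmpk, Bag3, Hsf1 and Hspa8. Hspa1a, Hspa1b, Unc45b, Prkg1, the p38 and MAPKAPK genes other than Mapk12, and the markers were named beside this rule.

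Alternatives were DESeq2 1.42.0, other normalizations and filters, limma 3.58.1 on log2 TPM, counts per read pair, a replicate block and leaving out each library. Summing Hspb1 with its copies was added after the data were seen. The fits were also run on simulated counts with a single dispersion and only large known changes. Such a simulation cannot speak for small changes or for genes with low counts. Annotation was GENCODE M21, in which 55154 of 55421 identifiers were found. Shared sequence was counted in stretches of 75 bases. Promoters and microRNAs were from RefSeq.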

Additional observations from a re-analysis of the deposited data

How the results depend on the processing

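Of the small heat shock protein genes, Hspb1 kept its direction and its call under all 16 alternatives, and Cryab and Hspb6 under all 15 that could move them. The number higher lay between 2 and 4 and the number lower was 1 throughout. The number higher with a log2 fold change above 1 was 1, and it was 2 with at least 10 counts in every library and with limma on log2(TPM + 0.1), where Hspb3 was called. Over the fits without 1 library it was 1 to 2. The log2 fold change of Hspb2 reversed to 0.001 with RLE factors and 0.007 with upper quartile factors, and lay between -0.08 and 0.047 without 1 library. That of Hspa8 lay between -0.044 and 0.133 without 1 library. The chaperone network genes numbered 15 to 23 higher and 9 to 15 lower, and those lower with a log2 fold change below -1 were 1 to 2 without 1 library. The ratio of summed TPM was 1.74, and 1.15 without Hspb1. It was 1.81 with FPKM.

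Replicate numbers did not pair the libraries: same-numbered deviations correlated at 0.131, 0.0689 and 0.0458. With the replicate block, 3 small heat shock protein genes were higher and 1 was lower, and 23 chaperone network genes were higher and 15 lower, where over all 18140 genes 2667 were higher and 3066 lower (2401 and 2817 without it). Bag3 passed under the block (adjusted p = 0.0291). Of the log2 fold changes of the 36 genes named, 481 of the values under alternatives kept direction and side of the threshold, 49 lost the call, 5 gained it and 6 reversed. Why Hspb2, Hspb3 and Hspb8 moved between settings was not tested. On counts per read pair the adjusted p was smaller for Hspb3 (0.0505), Hspb8 (0.0203) and Cryab (0.00168). Hspb3 also had low counts in every library. The 3 libraries per group are of 1 line each.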
